A study of Homo sapiens with 9 samples.

Results

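The Krüppel-like factors (KLFs) of endothelium were followed here as 10 genes, KLF2, KLF3, KLF4, KLF5, KLF6, KLF7, KLF9, KLF10, KLF11 and KLF13, taken by symbol from the 29740 gene symbols of the count table. All 10 were found and all 10 passed the filter on low counts. The cells were HMEC-1, a single established line of human dermal microvascular endothelial cells immortalised with the SV40 large T antigen. RNA was sequenced from untreated cells (CTRL) and from cells given trimethylamine-N-oxide (TMAO), an oxidised metabolite of dietary choline and carnitine that circulates in blood, at 50 µM for 24 h (TMAO 24H) or 48 h (TMAO 48H), with 3 libraries per group. The methods describe a medium with reduced serum during treatment, and the study combined controls of both time points into CTRL, with no time given for a single library, so time in culture and time in TMAO cannot be told apart. The study's general statement on statistics speaks of independent experiments, but the labels do not tie the libraries to separate cultures, so p-values measure the spread between these libraries, which may in part be technical.

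KLFs are transcription factors whose C-terminal zinc fingers bind GC-rich and CACCC-type sequences, the same kind of site that the related SP factors use. In endothelium, KLF2 and KLF4 are induced by laminar flow through the MEKK3, ERK5 and MEF2 cascade and are known to sustain anti-inflammatory and anti-thrombotic genes. KLF6 is known as an injury-response factor of vessels, KLF9 as a glucocorticoid receptor target, and KLF10 and KLF11 as early genes of transforming growth factor-beta (TGF-beta).

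Promoter sequences are shown for 4 of these genes, the flow-responsive pair KLF2 and KLF4 and the injury and glucocorticoid factors KLF6 and KLF9, to let their letters be compared. KLF factors bind GC-rich sites, and MEF2 acts on KLF2 and KLF4. Each line gives the 250 bases before the start site from RefSeq (GRCh38.p14), 5' to 3' on the gene's strand, with capitals for the GC box (GGGCGG, on either strand) and the MEF2 consensus.
KLF2, chr19:16324576-16324825 (plus strand): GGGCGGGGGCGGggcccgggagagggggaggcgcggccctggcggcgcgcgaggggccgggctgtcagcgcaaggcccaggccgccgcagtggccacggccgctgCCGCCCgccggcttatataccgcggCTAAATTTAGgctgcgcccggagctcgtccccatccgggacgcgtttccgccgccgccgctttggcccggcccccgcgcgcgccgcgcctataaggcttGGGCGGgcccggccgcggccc
KLF4, chr9:107489770-107490019 (minus strand): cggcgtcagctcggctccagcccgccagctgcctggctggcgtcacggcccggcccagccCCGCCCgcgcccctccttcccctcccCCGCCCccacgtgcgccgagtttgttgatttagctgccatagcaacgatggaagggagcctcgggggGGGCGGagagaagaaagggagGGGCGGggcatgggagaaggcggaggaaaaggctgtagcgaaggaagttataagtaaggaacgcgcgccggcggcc
KLF6, chr10:3785210-3785459 (minus strand): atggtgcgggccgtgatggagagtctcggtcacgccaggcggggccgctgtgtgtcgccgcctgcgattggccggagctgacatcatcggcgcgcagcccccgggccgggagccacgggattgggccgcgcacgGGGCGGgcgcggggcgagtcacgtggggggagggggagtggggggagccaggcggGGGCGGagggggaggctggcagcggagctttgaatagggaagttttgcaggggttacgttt
KLF9, chr9:70414658-70414907 (minus strand): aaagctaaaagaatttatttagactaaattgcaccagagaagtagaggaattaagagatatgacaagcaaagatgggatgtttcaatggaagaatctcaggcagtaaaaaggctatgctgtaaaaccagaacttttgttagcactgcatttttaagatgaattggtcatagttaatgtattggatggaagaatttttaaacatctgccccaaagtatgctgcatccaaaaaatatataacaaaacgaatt

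Across windows of 300 bases, from 250 before to 50 after a start, 8 of the 10 genes had an entry, with 13 windows in all. A GC box on either strand was found for 7 of these 8 genes, KLF9 being the exception. By window, it was found in 8 of the 13 and in 44.95% of all 35116 promoter windows. The MEF2 consensus matched 1 of the 13 windows, that of KLF2, where CTAAATTTAG lay at -120 to -111 from the start, and 0.572% of all windows. The cAMP response element TGACGTCA matched 1 window of KLF11, at -176 to -169 from the start, where it overlapped a CACCC match by 2 bases, and 1.85% of all windows. The KLF2 window was 80.7% G and C and the KLF9 window 32.7%, against a median of 58.7% over all windows. CACCC occurred in 7 of the 13 windows, from 4 of the 8 genes (59.9% of all windows). TATAAA occurred in 1 window, of KLF5 (11.5%), and the CArG box of serum response factor in 1, of KLF7 (1.29%). These matches describe letters in a window and say nothing of binding.

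Depth ranged from 25205756 to 36927373 counts per library. TMAO 24H replicate 1 stood apart, where ribosomal RNA took 31.5% of counts, the next highest share being 7.46%. TMAO 48H replicate 3 stood apart in epithelial genes: KRT5, a basal keratin, had 125 normalised counts there against 763 to 1630.2 in the other 8 libraries. The 3 epithelial markers EPCAM, CDH1 and KRT5 summed to 1205 to 1979.8 in CTRL, 1139 to 1506 in TMAO 24H and 198 to 1916 in TMAO 48H. All 12 endothelial markers were detected, and their summed level ranged from 81185 to 92285 in CTRL, from 81123 to 87314 in TMAO 24H and from 71996 to 79679.9 in TMAO 48H. Of these 12, 7 were lower and 0 higher at 48H against CTRL at an adjusted p under 0.05. By the same measure, 5.29% of all tested genes were lower and 5.14% higher. The 7 fibroblast or mural markers summed to 2060 to 2224 in CTRL, 2104 to 2179.7 in TMAO 24H and 2192 to 2369 in TMAO 48H. Against CTRL at 48H, 3 of the 5 tested were higher and 2 lower. ACTA2 and THY1 passed as higher and 0 passed as lower. PDGFRB had 1524, 1487 and 1371 normalised counts in CTRL and 1241, 1345 and 1350 in TMAO 48H. DCN and LUM were at or near 0 throughout. Of the leukocyte markers, PTPRC and CD3E were at or near 0 and CD68 was present, with list sums of 553 to 638, 614 to 662 and 636 to 672 in the 3 groups. In bulk RNA, fewer cells of a type and less RNA per cell cannot be told apart. The part of these shifts in the KLF values was not tested.

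KLF6 stood highest of the 10 genes in CTRL when counts were set per kb of the longest annotated transcript. The transcript in use was not determined and GC content was not corrected for, so the order between genes is approximate. The mean of KLF6 was 1447 ± 15.02 normalised counts per kb (SD, n = 3), followed by KLF2 at 964 ± 36.8. KLF13 (554 ± 17.0), KLF3 (492 ± 11.4) and KLF10 (386 ± 19.1) formed a middle range in which no neighbours among the 10 genes overlapped. KLF11 (198 ± 14.1) came next, then KLF4 (178 ± 4.90), KLF7 (165 ± 7.98) and KLF9 (153 ± 9.71), whose libraries overlapped with those of the neighbour in this order. KLF5, known from epithelium and smooth muscle, was the lowest at 50.9 ± 3.47. The order of KLF6 and KLF2 at the top and KLF5 at the bottom held in TMAO 24H and TMAO 48H.

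**Figure D1:**
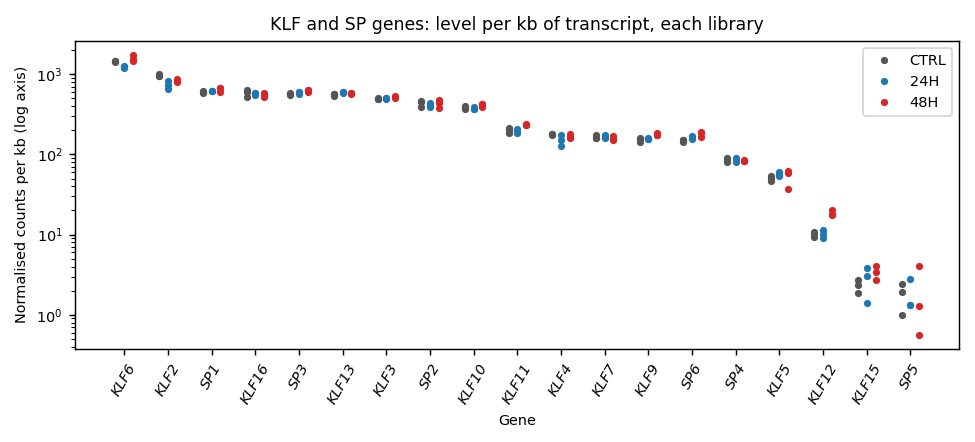
Normalised counts per kb of transcript (log axis) of the KLF and SP genes above a CTRL mean of 1, with a point for each library in CTRL (grey), TMAO 24H (blue) and TMAO 48H (red). KLF6 and KLF2 lead the family and KLF12, at about 10 per kb in CTRL, has its 3 TMAO 48H points well above the other 6.

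TMAO at 24H left none of the 10 KLF genes past an adjusted p of 0.05 in edgeR's quasi-likelihood test, in which 0.095% of the 14740 tested genes passed, all of them lower. Before adjustment, 3 of the 10 (KLF2, KLF4 and KLF6) had lower values and 1 (KLF13) had higher values with a p under 0.05, where 659 of all tested genes had lower and 408 had higher values by the same measure. DESeq2 on the same counts called 2 of the 10, KLF2 and KLF6, both lower, where it called 57 of all tested genes. The libraries of TMAO 24H and CTRL did not overlap for 3 of the 10, 1 with higher values (KLF13, where 6.73% of all tested genes did so) and 2 with lower values (KLF2 and KLF6, where 7.52% did so), against 14.2% of all tested genes in either direction. The median log2 fold change of the 10 was -0.0026, beside -0.00042 over all tested genes.

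At 48H, 2 of the 10, KLF9 and KLF11, rose against CTRL, where 10.4% of all tested genes passed, 5.14% as higher and 5.29% as lower. The same 2 genes passed without TMAO 48H replicate 3, and 0 of the 10 passed without CTRL replicate 2 or TMAO 48H replicate 2. Without CTRL replicate 1 the 1 that passed was KLF11, and without CTRL replicate 3 it was KLF9. DESeq2 called both genes and also KLF2, as lower, where it called 1713 of all tested genes. Both changes were small (1.17-fold and 1.18-fold), and 0 of the 10 passed with a change of at least 1.4-fold, which 1.8% of tested genes did. The libraries did not overlap for 5 of the 10, 4 higher (KLF6, KLF9, KLF11 and KLF13) and 1 lower (KLF2), against 27.8% of all tested genes. The median log2 fold change was 0.060, beside 0.0040 over all tested genes.

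Between TMAO 48H and TMAO 24H, 2 of the 10, KLF6 and KLF11, were higher at 48H, where 7.53% of all tested genes passed and 3.77% passed as higher. Of the 10, 0 passed with at least 1.4-fold, against 1.71% of tested genes. Without TMAO 24H replicate 1, KLF6 alone passed, as it did without TMAO 24H replicate 2 or TMAO 48H replicate 2. KLF6 and KLF11 passed without TMAO 48H replicate 3, and KLF2 joined them without TMAO 24H replicate 3. For 4 of the 10 the libraries did not overlap, all with higher values at 48H (KLF6, KLF9, KLF10 and KLF11), against 27.6% of all tested genes and 14.7% in that direction. Both comparisons against CTRL share the same 3 control libraries, so their values are given side by side and not set against each other.

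**Figure D2:**
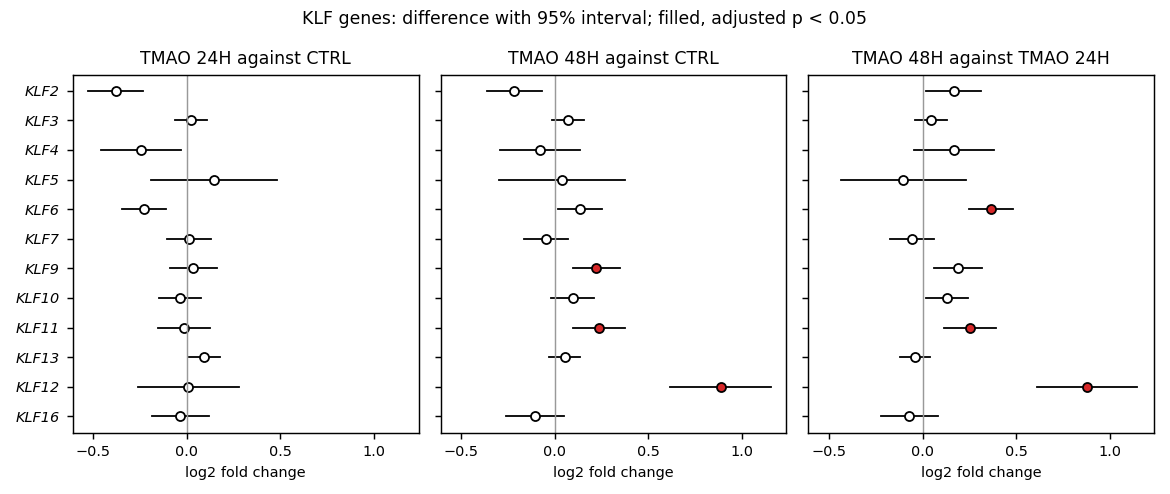
Log2 fold change (x axis) of the 10 KLF genes and of KLF12 and KLF16 in the 3 comparisons, with 95% confidence intervals as lines and filled points for an adjusted p under 0.05. No point is filled at 24H, KLF9, KLF11 and KLF12 are filled at 48H against CTRL, and KLF6, KLF11 and KLF12 are filled at 48H against 24H.

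KLF2, the flow-induced factor that sustains NOS3 and thrombomodulin, had its highest values in untreated cells. It was measured at 1907, 2029.9 and 1896 normalised counts in CTRL, at 1331, 1489 and 1662 in TMAO 24H and at 1655, 1740.2 and 1628 in TMAO 48H. Every treated library lay below every CTRL library at both times, while the TMAO groups overlapped with each other. The log2 fold change was -0.38 at 24H (SE 0.068, 95% interval -0.53 to -0.23) and missed the threshold with an adjusted p of 0.0655 in edgeR. The adjusted p was 0.0475 with at least 10 counts required in every library, 0.000163 in DESeq2, and 0.0199 without TMAO 24H replicate 3, where the log2 fold change was -0.46. Without TMAO 24H replicate 1, the library rich in ribosomal RNA, the log2 fold change was -0.30 (adjusted p = 0.182).

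The 48H value of KLF2 was a log2 fold change of -0.22 (SE 0.068, interval -0.36 to -0.07) and an edgeR adjusted p of 0.0599, and 4 of the 16 alternatives put it past the threshold, with DESeq2 giving 0.0257. KLF2 transcripts are rich in G and C, 65.2% against a median of 48.7% over tested genes. With a correction of the counts for GC content, chosen after seeing the data, the log2 fold change was -0.31 at 24H (adjusted p = 0.113) and -0.098 at 48H (adjusted p = 0.366). The difference between the TMAO groups was 0.16 (interval 0.02 to 0.31, adjusted p = 0.171), which became 0.21 with an adjusted p of 0.0494 under the GC correction and 0.25 with an adjusted p of 0.0440 without TMAO 24H replicate 3.

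KLF4, the partner of KLF2 in the flow response and a pluripotency factor elsewhere, varied most within TMAO 24H. Its normalised counts were 486, 512 and 507 in CTRL, 422, 358 and 489 in TMAO 24H, and 457, 455 and 512 in TMAO 48H. TMAO 24H replicate 3 lay above the lowest CTRL library, so the groups overlapped. The log2 fold change was -0.24 at 24H (SE 0.099, interval -0.46 to -0.03, edgeR adjusted p = 0.650) and -0.08 at 48H (interval -0.29 to 0.14, adjusted p = 0.672). Over the 9 libraries KLF2 and KLF4 had a Pearson correlation of 0.69, given as a description, since both were measured in the same libraries.

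KLF6, the injury-response factor known to activate TGF-beta receptor genes, had the largest difference of the 10 genes between the times. It was counted at 6687, 6819 and 6712 normalised counts in CTRL, at 5970.0, 5679 and 5596 in TMAO 24H and at 7204, 6886 and 8134 in TMAO 48H. The 3 groups did not overlap, with TMAO 24H lowest, CTRL between and TMAO 48H highest. Of all tested genes, 14.2% did not overlap at 24H against CTRL, 27.8% at 48H against CTRL and 27.6% between the times. The share separated in all 3 was not computed. From 24H to 48H the mean went from 5748 ± 196 to 7408 ± 649 (SD, n = 3), a log2 fold change of 0.37 (SE 0.054, interval 0.25 to 0.48, edgeR adjusted p = 0.000958). This call was kept in all 16 alternatives, with log2 fold changes from 0.29 to 0.42.

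The highest KLF6 value came from TMAO 48H replicate 3, the library low in epithelial genes, and without it the log2 fold change was 0.29 (adjusted p = 0.00146). Against CTRL, neither time passed. The log2 fold change was -0.23 at 24H (SE 0.054, interval -0.35 to -0.11, adjusted p = 0.244), with DESeq2 at 0.0178 and a fit of only these groups at 0.0404. It was 0.14 at 48H (interval 0.02 to 0.25, adjusted p = 0.130), and 0.064 without TMAO 48H replicate 3 (adjusted p = 0.389).

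**Figure D3:**
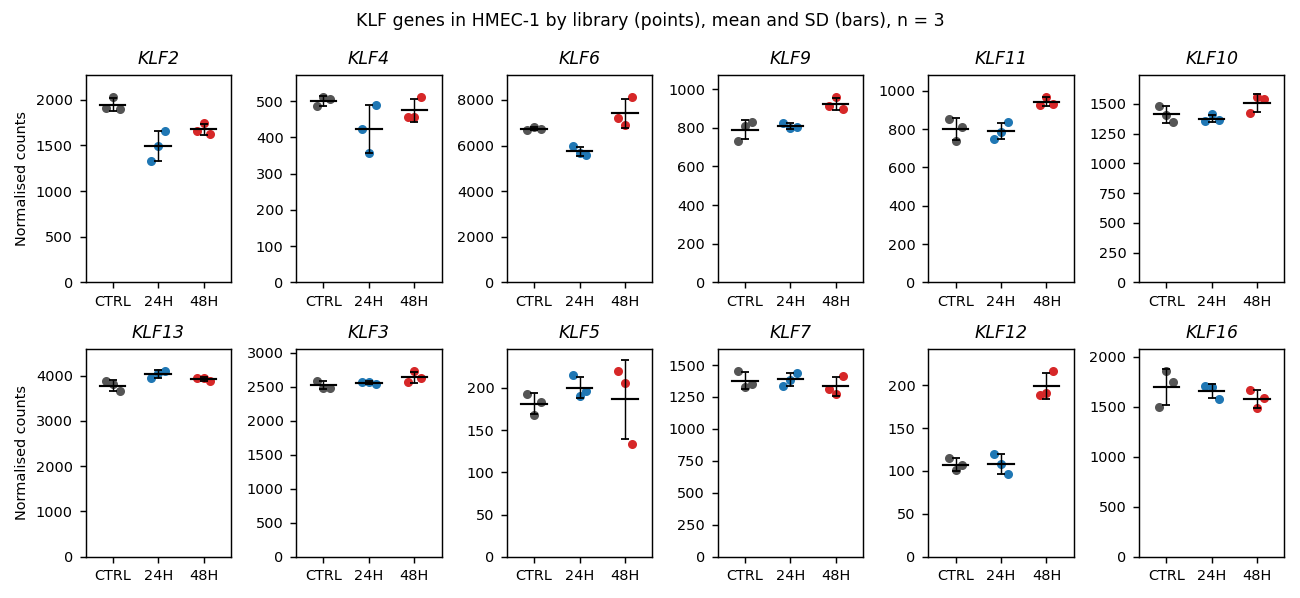
Normalised counts (y axis, from 0) of the 10 KLF genes and of KLF12 and KLF16 in each library (points), with the group mean and SD (bars, n = 3) for CTRL, TMAO 24H and TMAO 48H. KLF6 dips at 24H and is highest at 48H, KLF2 is highest in CTRL, and KLF12 lies between 189 and 216 at 48H against 96.7 to 119.9 elsewhere.

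KLF9, a glucocorticoid-inducible repressor, rose at 48H. Its normalised counts were 734, 807 and 830.2 in CTRL, 826, 800.0 and 804 in TMAO 24H, and 911, 959.9 and 896 in TMAO 48H. All 3 TMAO 48H libraries were above all 6 others. At 24H the log2 fold change was 0.03 (interval -0.09 to 0.16, edgeR adjusted p = 0.955), and at 48H it was 0.22 (SE 0.059, interval 0.10 to 0.35, adjusted p = 0.0301). The direct comparison of the times gave 0.19 with an edgeR adjusted p of 0.0730, so TMAO 24H and TMAO 48H were not shown to differ.

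The KLF9 call at 48H was lost without CTRL replicate 1 (adjusted p = 0.110), CTRL replicate 2 (0.0685) or TMAO 48H replicate 2 (0.123), in a fit of only the groups compared (0.0724), and under the GC correction (0.0564). Its direction held in all 16 alternatives, with log2 fold changes from 0.17 to 0.25. Without TMAO 48H replicate 3, the adjusted p was 0.0343.

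KLF11, a TGF-beta-inducible factor that represses through SIN3A, rose at 48H against both other groups. Its normalised counts were 849.8, 738 and 810.0 in CTRL, 749, 786 and 836 in TMAO 24H, and 928, 968 and 929.7 in TMAO 48H. CTRL and TMAO 24H covered one range and TMAO 48H lay wholly above it. The log2 fold change was -0.02 at 24H (interval -0.15 to 0.12, edgeR adjusted p = 0.984), 0.24 at 48H (SE 0.064, interval 0.10 to 0.38, adjusted p = 0.0333), and 0.25 at 48H against 24H (SE 0.064, interval 0.11 to 0.39, adjusted p = 0.0297).

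Both KLF11 calls were lost in some fits that left out a library, and calls over all tested genes fell there too. Against CTRL these fell from 1537 to 784 without CTRL replicate 2 and to 700 without TMAO 48H replicate 2. Against TMAO 24H they fell from 1110 to 653 without TMAO 24H replicate 1. A smaller group and the weight of a single library cannot be told apart in these fits. Against CTRL the adjusted p was 0.132 without CTRL replicate 2, 0.0602 without CTRL replicate 3 and 0.121 without TMAO 48H replicate 2, and 0.0587 in a fit of only the groups compared. Against TMAO 24H it was 0.127 without TMAO 24H replicate 1, 0.0932 without TMAO 24H replicate 2 and 0.116 without TMAO 48H replicate 2. The sign of both differences held in all 16 alternatives.

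KLF10, the other TGF-beta early gene, did not pass in any comparison. It had 1485, 1404 and 1345 normalised counts in CTRL, 1353, 1412 and 1365 in TMAO 24H, and 1420.1, 1559.7 and 1541 in TMAO 48H. The TMAO 48H libraries were above all TMAO 24H libraries and overlapped with CTRL, with a log2 fold change of 0.13 against TMAO 24H (interval 0.02 to 0.24, edgeR adjusted p = 0.163) and of 0.09 against CTRL (interval -0.02 to 0.21, adjusted p = 0.279). Its correlation with KLF11 over the 9 libraries was 0.74, and with KLF3 0.81, the highest among the 10 genes, again as a description.

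KLF13, a SIN3A-binding factor known from T cells, lay slightly above CTRL in every treated library. It was measured at 3874, 3822 and 3652 in CTRL, at 3943, 4059 and 4101 in TMAO 24H and at 3944, 3945 and 3878 in TMAO 48H. The log2 fold changes were 0.09 at 24H (interval 0.01 to 0.18, edgeR adjusted p = 0.654) and 0.05 at 48H (interval -0.03 to 0.13, adjusted p = 0.424), neither past the threshold.

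KLF3, a repressor that acts with the C-terminal binding proteins (CtBP), and KLF7, a broadly expressed member, did not pass in any comparison. KLF3 ranged from 2483 to 2586 normalised counts in CTRL, from 2534 to 2577 in TMAO 24H and from 2567 to 2730.1 in TMAO 48H. KLF7 ranged from 1326 to 1452, from 1336 to 1440.4 and from 1274 to 1412 in the same order. All groups overlapped for both genes, and the 95% intervals against CTRL reached no further than -0.06 to 0.15 for KLF3 and -0.17 to 0.13 for KLF7 on the log2 scale. KLF3 counts were fractional and an antisense gene, KLF3-AS1, is annotated at this locus. The use of strand in counting is not given in the sources used here, so the share of antisense reads in KLF3 cannot be told apart.

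KLF5 had few counts and a wide spread at 48H. Its normalised counts were 193, 168 and 183 in CTRL, 215, 190.5 and 196 in TMAO 24H, and 220.0, 206 and 133 in TMAO 48H. The lowest value came from TMAO 48H replicate 3, the library in which KRT5 (125), EPCAM (38.0) and CDH1 (34.5) were also at their lowest. The log2 fold change against CTRL at 48H was 0.04 with all libraries (interval -0.30 to 0.38, edgeR adjusted p = 0.905) and 0.23 without that library (adjusted p = 0.216). The part of the epithelial genes in the KLF5 value was not tested.

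Among the KLF genes outside these 10, KLF12, a CtBP-binding repressor, had the largest difference of the family. It was at 115, 101 and 107 normalised counts in CTRL, 119.9, 108 and 96.7 in TMAO 24H, and 189, 191 and 216 in TMAO 48H. It rose at 48H by a log2 fold change of 0.89 against CTRL (SE 0.124, edgeR adjusted p = 0.000855) and was 0.88 higher than at 24H (adjusted p = 0.000648). Both calls were kept in all 16 alternatives, and without TMAO 48H replicate 3 the log2 fold changes were 0.82 and 0.81. Per kb of the longest annotated transcript, KLF12 was the lowest of the tested KLF genes, at 10.1 in CTRL and 18.7 in TMAO 48H.

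KLF16, a repressor of the SIN3-binding branch, did not pass in any comparison (log2 fold change -0.03 at 24H and -0.11 at 48H). KLF1, KLF8, KLF14, KLF15 and KLF17 were under the filter on low counts, with group means of at most 8.73 normalised counts. Of the SP factors, SP6 rose at 48H (586, 545 and 586 in CTRL against 725, 714 and 641; log2 fold change 0.28, adjusted p = 0.0208), a call lost without CTRL replicate 2, TMAO 48H replicate 1 or TMAO 48H replicate 2, with adjusted p up to 0.0914. SP1, SP2, SP3 and SP4 passed in none of the comparisons, and SP5, SP7, SP8 and SP9 were not tested.

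The cascade upstream of KLF2 and KLF4 was described by 12 genes, the kinases MAP3K3 (MEKK3), MAP2K5 and MAPK7 (ERK5), the MEF2A, MEF2C and MEF2D factors, the class IIa deacetylases HDAC5 and HDAC7 that hold MEF2 in check, and the cerebral cavernous malformation proteins with their anchor HEG1. All 12 were tested and 0 passed in edgeR in any of the 3 comparisons. With p under 0.05 before adjustment there were 0 of the 12 at 24H, 1 with higher and 3 with lower values at 48H, and 1 with lower values at 48H against 24H. By this measure 1939 of all tested genes had higher and 1863 lower values at 48H, and 1541 lower values at 48H against 24H. DESeq2 called 0, 1 and 0 genes in the 3 comparisons, the 1 being HDAC7, lower at 48H, which edgeR also called without TMAO 48H replicate 3. Its calls over all tested genes were 57, 1713 and 1232 in the same order for DESeq2. The medians were -0.0032 at 24H and -0.025 at 48H on the log2 scale, with single values no further out than -0.16 and 0.13 at 48H.

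Of 17 endothelial genes known to be induced by KLF2 or KLF4, 15 were tested. At 24H, 0 of the 15 passed in edgeR or DESeq2, 1 had a p under 0.05 before adjustment, and the median difference was 0.019 on the log2 scale. At 48H, 6 fell and 1 rose, where 5.29% of all tested genes passed as lower and 5.14% as higher, with a median of -0.18 beside 0.0040 over all tested genes. The 12 endothelial markers had a median of -0.21 in the same comparison, and their part in these values was not tested. Without TMAO 48H replicate 3, 5 of the list passed as lower and 1 as higher. The genes that fell included the water channel AQP1 (log2 fold change -0.65, adjusted p = 0.00133), the arginine-cycle enzyme ASS1 (-0.63, adjusted p = 0.000961), caveolin CAV1 (-0.32, adjusted p = 0.00109) and the glycocalyx protein PODXL (-0.36, adjusted p = 0.00481), and these 4 calls held in all 6 fits that left out a library. The other two that fell were THBD and PTGDS, the latter on group means of 15.5 and 3.399 normalised counts. The gene that rose was the cell cycle inhibitor CDKN1A (0.58, adjusted p = 2.51e-06), which is also a target of p53 and is on the KLF6 list.

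THBD and NOS3 are textbook KLF2 targets. THBD, thrombomodulin, had 2433, 2509.8 and 2248 normalised counts in CTRL and 2065, 1923 and 2071 in TMAO 48H, a log2 fold change of -0.25 (edgeR adjusted p = 0.0153) that was lost without CTRL replicate 1, CTRL replicate 2 or TMAO 48H replicate 2, with adjusted p up to 0.0790. NOS3, endothelial nitric oxide synthase, had 546, 523 and 517 in CTRL and 431, 469 and 464 in TMAO 48H, with no overlap, a log2 fold change of -0.22 and an adjusted p of 0.0504. Between the times NOS3 was lower at 48H (-0.24, adjusted p = 0.0432), a call that each of the 6 fits leaving out a library removed, with adjusted p up to 0.138. The angiopoietin receptor TEK was lower at 48H than at 24H (-0.21, adjusted p = 0.0193), a call lost without TMAO 24H replicate 1, TMAO 24H replicate 2, TMAO 24H replicate 3, TMAO 48H replicate 3 with adjusted p up to 0.0713, and against CTRL its log2 fold change was -0.14 (adjusted p = 0.0938).

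Of 14 symbols listed for genes known to be repressed by KLF2 or KLF4 in endothelium, with interleukin 8 under both its names, 11 were tested. At 24H, 10 of the 11 had a log2 fold change below 0 and 1, the vasoconstrictor peptide EDN1, fell (-0.42, edgeR adjusted p = 0.0454). Below 0 were also 7397 of the 14740 tested genes and 10 of the 12 endothelial markers, whose part was not tested. As lower, 0.095% of all tested genes passed at 24H. The EDN1 call was lost in 5 of 6 fits that left out a library, all but the one without TMAO 24H replicate 1, with adjusted p up to 0.386. At 48H, the chemokine CCL2 rose (0.72, adjusted p = 0.00058) and 2 genes fell, the matrix protein THBS1 (-0.47, adjusted p = 0.0045) and the VEGF receptor KDR (-0.27, adjusted p = 0.011). The shares of all tested genes at 48H were 5.14% passing as higher and 5.29% as lower.

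From 24H to 48H, 4 of these 11 rose and 2 fell, where 3.77% of all tested genes passed in each direction, and the list's median was 0.37 on the log2 scale. Of the 12 endothelial markers, which include KDR, 5 were lower and 1 higher in the same comparison, and their part in these values was not tested. EDN1 was 0.48 higher at 48H (adjusted p = 0.000737), CCL2 0.91 higher (adjusted p = 5.97e-05) and IL6 1.10 higher (adjusted p = 0.00494), and the chemokine CCL5 had 1.10 (adjusted p = 0.0129), a call lost without TMAO 24H replicate 3 (adjusted p = 0.0673). THBS1 and KDR were lower, the THBS1 call being lost without TMAO 24H replicate 1 or 3 or TMAO 48H replicate 1 or 2 (adjusted p up to 0.121) and the KDR call without TMAO 24H replicate 3 or TMAO 48H replicate 2 (adjusted p up to 0.0586). The adhesion molecule VCAM1 had a log2 fold change of 0.55 against CTRL at 48H (adjusted p = 0.179) and of 0.87 against 24H (adjusted p = 0.0529), on means of 27.3 to 50.5 normalised counts, and E-selectin (SELE) was under the filter with a group mean of at most 1.36. Against CTRL the median of the list was -0.19 at 24H and 0.065 at 48H.

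**Figure D4:**
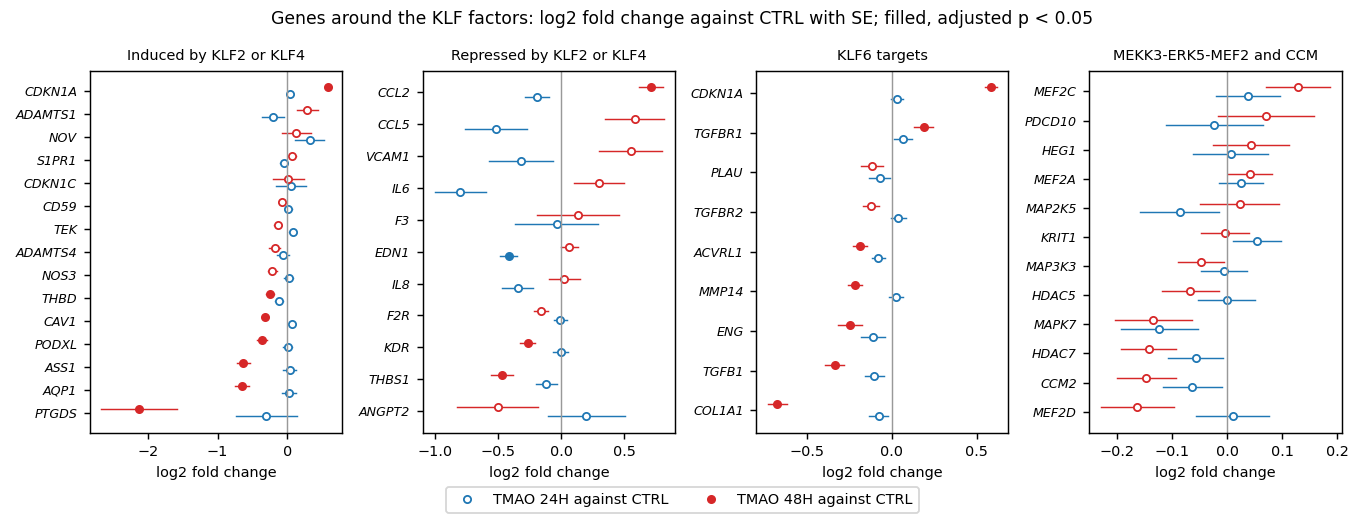
Log2 fold change against CTRL (x axis, with SE as lines) of genes induced or repressed by KLF2 or KLF4, of KLF6 targets and of the MEKK3-ERK5-MEF2 and CCM pathway, for TMAO 24H (blue) and TMAO 48H (red), filled where the adjusted p was under 0.05. Filled points are almost all from 48H, EDN1 being the 1 filled at 24H, and the upstream pathway has none.

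Of 10 KLF6 targets, 9 were tested and 0 passed at 24H in edgeR or DESeq2, with 0 of the 9 at p under 0.05 before adjustment. At 48H, 2 rose and 5 fell, where 5.14% of all tested genes passed as higher and 5.29% as lower, and the median difference was -0.19 on the log2 scale. Of the 12 endothelial markers, which include ENG, 7 were lower with a median of -0.21, and their part in these values was not tested. Without TMAO 48H replicate 3, 1 was called higher and 5 lower. COL1A1, a fibrillar collagen chain, fell by 0.67 on the log2 scale (edgeR adjusted p = 2.15e-05), the ligand TGFB1 by 0.34 (adjusted p = 0.00217), the membrane protease MMP14 by 0.22 (adjusted p = 0.00612) and the endothelial TGF-beta receptor ACVRL1 by 0.19 (adjusted p = 0.00955). The co-receptor endoglin, ENG, fell by 0.25 (adjusted p = 0.0409), a call lost without CTRL replicate 1 or 2 or TMAO 48H replicate 1 or 2 (adjusted p up to 0.163). The genes that rose were CDKN1A and the type I receptor TGFBR1 (0.19, adjusted p = 0.0477), the latter lost in 5 of the 6 fits that left out a library, all but that without TMAO 48H replicate 2, with adjusted p up to 0.169, and in 9 of the 10 other alternatives, DESeq2 among them.

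The TGF-beta pathway upstream of KLF10 and KLF11 was described by 12 genes, all tested. At 24H, 0 passed in edgeR, 3 had lower values with p under 0.05 before adjustment, and DESeq2 called 1, TGFB2, as lower. Over all tested genes, 659 had lower values with such a p, and DESeq2 called 57. At 48H against CTRL, 1 rose (TGFBR1, the call that most alternatives removed) and 1 fell (TGFB1). There, 5.14% of all tested genes passed as higher and 5.29% as lower. From 24H to 48H, 3 were higher and 2 lower, where 3.77% of all tested genes passed in each direction. The ligand TGFB2 was 0.35 higher (edgeR adjusted p = 0.00114), the inhibitory SMAD6 0.43 higher (adjusted p = 0.011) and the co-receptor TGFBR3 0.26 higher (adjusted p = 0.0298), while TGFB1 and TGFBR2 were lower. The SMAD6 call was lost without TMAO 24H replicate 1 or 2 (adjusted p up to 0.0545), that of TGFBR3 without TMAO 24H replicate 1 or 3 or TMAO 48H replicate 1 or 2 (up to 0.135), that of TGFB1 without TMAO 24H replicate 3 or TMAO 48H replicate 2 (up to 0.101), and that of TGFBR2 without any one of the 6 libraries (up to 0.163).

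Glucocorticoid-responsive genes, the group to which KLF9 belongs, were next. Of 8, 7 were tested, 1 fell at 24H and 1 rose at 48H, the phosphatase DUSP1 in both cases. Among all tested genes, 0.095% passed as lower at 24H and 5.14% as higher at 48H. DUSP1 was at 1899, 2039 and 1821 normalised counts in CTRL, 1319.7, 1140.2 and 1340.2 in TMAO 24H and 2882, 2679 and 3348 in TMAO 48H. The log2 fold changes of DUSP1 were -0.60 (edgeR adjusted p = 0.0106, lost without TMAO 24H replicate 2, CTRL replicate 1 or CTRL replicate 2 with adjusted p up to 0.103) and 0.63 (adjusted p = 0.000417). The glucocorticoid receptor NR3C1 had 0.14 at 48H (adjusted p = 0.0592), and FKBP5, PER1, TSC22D3 and MT2A did not pass in any comparison.

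SGK1, a kinase of the same list, had the pattern most like KLF6 of 12319 genes compared, with a Pearson correlation of 0.99 over the 9 libraries. It was at 2762, 2699.9 and 2714 normalised counts in CTRL, 2202, 2047 and 2099 in TMAO 24H and 3039, 2763 and 3623 in TMAO 48H, with TMAO 24H lowest and TMAO 48H highest as for KLF6. From 24H to 48H it rose by a log2 fold change of 0.57 (edgeR adjusted p = 0.000333). WNT3 (0.98) and ZNF398 (0.97) came next for KLF6. For KLF9 the nearest were MEIS3P1 (0.97), a pseudogene whose reads may be shared with its parent gene, BNIP2 (0.96) and SHPRH (0.95), and for KLF11 SLC37A1 (0.97), SESN1 (0.96) and KIAA1211 (0.96). All of these correlations rest on 9 shared libraries in 3 groups and are descriptions.

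Among the partners through which KLFs act, 10 cofactors were all tested. At 24H, 0 passed in edgeR or DESeq2 and 1 had a p under 0.05 before adjustment. At 48H, CTBP1, the corepressor of KLF3 and KLF12, fell by 0.19 on the log2 scale (edgeR adjusted p = 0.0109) and the acetyltransferase KAT2B rose by 0.22 (adjusted p = 0.0184). In this comparison, 5.14% of all tested genes passed as higher and 5.29% as lower. The CTBP1 call was lost without CTRL replicate 2 (adjusted p = 0.0502) and under the GC correction, and the KAT2B call without CTRL replicate 1, CTRL replicate 2 or TMAO 48H replicate 2 (adjusted p up to 0.0774). SIN3A, the corepressor of KLF9, KLF10, KLF11 and KLF13, did not pass in any comparison, nor did EP300 and CREBBP. Without TMAO 48H replicate 3, SIN3B was also called lower at 48H. Of the 4 ubiquitin ligases that target KLF proteins, SMURF2 fell at 48H by 0.19 (adjusted p = 0.0101), and SMURF1, WWP1 and FBXW7 did not pass.

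**Figure D5:**
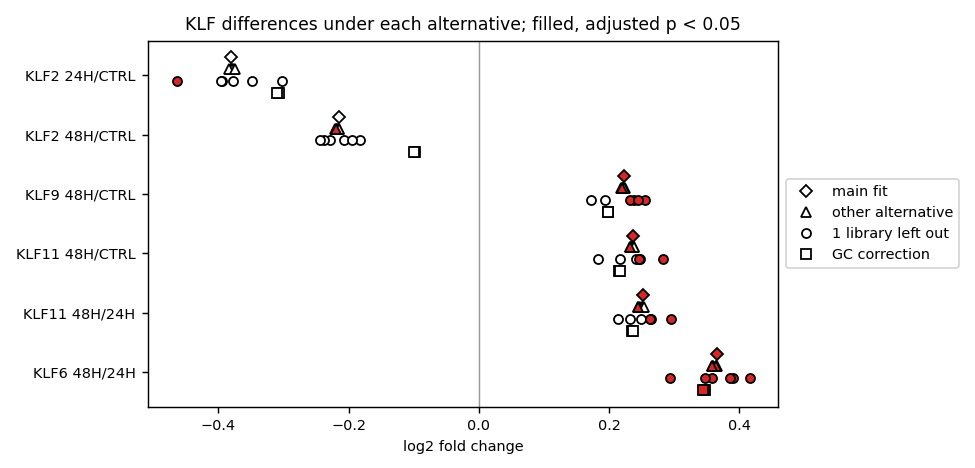
Log2 fold change (x axis) of the KLF2, KLF9, KLF11 and KLF6 differences in the main fit (diamonds), with 1 library left out (circles), with GC correction (squares) and under the other alternatives (triangles), filled where the adjusted p was under 0.05. Every KLF6 point between the times is filled, the KLF9 and KLF11 points are mixed, and the KLF2 squares at 48H lie nearest to 0.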

How the data were processed

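RNA was sequenced from 9 HMEC-1 libraries, 3 each for CTRL, TMAO 24H and TMAO 48H. The authors trimmed reads (Trim Galore, per the submitters' processing notes) and generated counts with the nf-core RNAseq pipeline. The quantifier and genome build are not given in the sources used here. The deposited table holds estimated counts per gene symbol, 14.7% of values not whole, which were rounded. The members and gene lists were chosen with earlier results of these data known.

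Counts were fitted with edgeR 4.0.16 in R 4.3.3 (filterByExpr, TMM, glmQLFit, glmQLFTest), with all 9 libraries in 1 fit and group as the only term, and 14740 of 29740 genes tested. Standard errors were taken from the log2 fold change and the F statistic, 95% intervals from its degrees of freedom, and p-values were adjusted by Benjamini-Hochberg over all tested genes. Normalised counts are counts scaled by TMM to the mean effective library size. With 3 against 3 libraries an exact permutation test cannot go below 0.1 and was not used. The fit was tested on simulated counts. Total counts of 25205756 to 36927373 per library set the precision, and no pair of libraries was identical (highest correlation 0.993).

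Named genes were all 10 members, the other KLF and SP genes, at most 6 genes a list with an adjusted p under 0.05 in any comparison, 6 fixed endothelial genes, and the 3 nearest genes by Pearson correlation (log2 normalised counts with a prior count of 1, mean of at least 50) of each member that passed. CDKN1A, TGFB1, TGFBR1, TGFBR2, ENG and KDR stand on more than one list. Genes outside this rule (markers, PTGDS, TGFBR1 as a KLF6 target, HDAC7, SIN3B, untested genes and those named as not passing) were chosen after their values were seen. Transcript length and GC content came from the longest GENCODE 29 transcript of each symbol (89.8% of tested genes had a value), and promoters from RefSeq. Alternatives were RLE factors, DESeq2 1.42.0, other filters, other sets of libraries, the older fit, a replicate block, removal of ribosomal RNA genes and a 1.4-fold minimum. A loess correction for GC content was added after the data were seen, as were list counts without TMAO 24H replicate 1 or TMAO 48H replicate 3. Markers and lists were described by counts and medians only, and some genes of these lists are not reported here.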

Additional observations from a re-analysis of the deposited data

Results flagged for a closer look

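The genes below differed between TMAO 48H and TMAO 24H by the direct test (edgeR quasi-likelihood, adjusted p under 0.05 over all tested genes). Time in culture and time in TMAO cannot be told apart here, so this does not show that effects of TMAO differ. Of the KLF family, the genes called were KLF6 (log2 fold change 0.37), KLF11 (0.25) and KLF12 (0.88). Each was higher at 48H in 3 of 3 libraries than in any library at 24H, as were 14.7% of all tested genes. They were picked by this same comparison, so the separation adds nothing to the calls.

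Over all tested genes, 3.77% passed as higher and 3.77% as lower in this comparison. Of the 12 endothelial markers, 1 passed as higher and 5 as lower, and their part in the values below was not tested. Among the 15 tested genes known to be induced by KLF2 or KLF4, CDKN1A was higher at 48H (0.55). Lower were AQP1 (-0.67), ASS1 (-0.67), CAV1 (-0.38), PODXL (-0.36), NOS3 (-0.24) and TEK (-0.21). Among the 11 tested genes known to be repressed by KLF2 or KLF4, CCL2 (0.91), EDN1 (0.48), IL6 (1.10) and CCL5 (1.10) were higher. THBS1 (-0.36) and KDR (-0.26) were lower. Of the 9 tested KLF6 targets and the 12 tested genes of the TGF-beta pathway, TGFB2 (0.35), SMAD6 (0.43) and TGFBR3 (0.26) were higher. COL1A1 (-0.59), MMP14 (-0.24), TGFB1 (-0.23) and TGFBR2 (-0.16) were lower. Of 7 tested glucocorticoid-responsive genes, DUSP1 (1.23) and SGK1 (0.57) were higher. KAT2B (0.21), of 10 cofactors, was higher, and SMURF2 (-0.16), of 4 ligases, was lower. Leaving out single libraries removed the calls of KLF11, CCL5, NOS3, TEK, KDR, THBS1, SMAD6, TGFBR3, TGFB1, TGFBR2, KAT2B and SMURF2, of which NOS3 and TGFBR2 lost theirs without any one of the 6. SMURF2 lost its call without TMAO 24H replicate 1 or 3 or TMAO 48H replicate 2 or 3 (adjusted p up to 0.130), and KAT2B without any TMAO 24H library or TMAO 48H replicate 2 (up to 0.118).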

How the results depend on the processing

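Of 512 repeats of single KLF results under 16 alternatives, 471 kept their direction and side of the threshold, 18 lost the call, 11 gained it and 12 changed sign. Most of these results were not called in the main fit and so had no call to lose. The 18 losses were all of KLF9 and KLF11. KLF9 at 48H lost its call in 7 of 16 alternatives, and KLF11 in 6 of 16 against CTRL and 5 of 16 against TMAO 24H. KLF12 was counted only in comparisons where it passed. The number of the 10 KLF genes past the threshold at 24H, 0 with the settings of the report, was 2 with DESeq2, 1 with at least 10 counts in every library and 1 with only the groups compared, and ranged from 0 to 1 without single libraries. At 48H, 2 with the settings of the report, it was 3 with DESeq2, with at least 10 counts in every library and with ribosomal RNA genes removed (KLF2 added as lower), 1 with only the groups compared (KLF2, lower, in place of KLF9 and KLF11), 1 with the GC correction (KLF11) and 0 with a 1.4-fold minimum, and ranged from 0 to 2 without single libraries. For TMAO 48H against TMAO 24H, 2 with the settings of the report, it was 3 with the GC correction (KLF2 added as higher), 0 with a 1.4-fold minimum and ranged from 1 to 3 without single libraries.

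Replicate numbers are shared by the groups, but same-numbered libraries did not deviate together (correlations from -0.14 to 0.10 in 9 pairs, against -0.11 to 0.15 in 18 pairs with different numbers). The labels do not say whether they share a culture or a run, and so few pairs cannot decide it. With the replicate block, 0 members passed at 24H, 0 at 48H (adjusted p of KLF9 0.0649 and of KLF11 0.0714) and 1, KLF6, between the times, and with the GC correction and the replicate block together the counts were 0, 0 and 1. All-gene calls with the block were 1, 948 and 731 in the 3 comparisons, against 14, 1537 and 1110, and with both 7 and 684 against CTRL.

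Across all genes, calls at 24H were 14, 57 with DESeq2 and 22 with only the groups compared, and from 0 to 12 without single libraries. At 48H they were 981 with only the groups compared and 700 to 1595 without single libraries, and between the times 558 to 1052.

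Results that changed sign were all far from the threshold. At 24H, KLF7 (main 0.011) was -0.0034 with the GC correction and -0.0042 with the GC correction and replicate block, and ranged without single libraries from -0.017 to 0.051. In the same way KLF9 ranged from -0.016 to 0.074, KLF10 from -0.066 to 0.0025 and KLF11 from -0.071 to 0.030. KLF5 ranged from -0.092 to 0.23 at 48H and from -0.24 to 0.088 between the times. The cause was not tested. With 3 libraries per group, log2 differences of 0.22 (KLF9, called) and -0.22 (KLF2, not called) at 48H lay on either side of the threshold.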
